A study of Teleogryllus oceanicus with 18 samples.

Results

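The peptidoglycan recognition proteins described here are MSTRG.9040, named peptidoglycan-recognition protein SC2, and MSTRG.22070, named peptidoglycan-recognition protein 2-like. They are 2 of the 32729 genes counted in the field cricket Teleogryllus oceanicus, and were taken because the study's table of immune genes gives them these names. The other gene of that table with such a name, MSTRG.18424, is set beside them. Peptidoglycan recognition proteins bind peptidoglycan, the mesh of sugar chains and short peptides in the wall of bacteria, and are among the first sensors of insect immunity. In Drosophila, PGRP-SA and PGRP-LC start the Toll and Imd pathways, whereas PGRP-SC and PGRP-LB are enzymes that cut peptidoglycan and thereby damp Imd signalling. In the silkworm Bombyx mori, a peptidoglycan recognition protein also triggers the prophenoloxidase cascade, which ends in melanin. The names of the cricket genes rest on sequence matches to proteins of other species, so the roles known from flies were not shown for the cricket genes. Both passed the filter on low counts, as did 23748 genes in all.

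The question was how expression of these genes changed when the larvae of a parasitoid fly, Ormia ochracea, grew inside the cricket. Infested males from Kauai, where the fly occurs, and from Mangaia, where it does not, were collected 4 or 7 days after 2 first instar larvae (planidia) had been placed on each, and uninfested controls of both populations were handled alike without larvae. Each of the 6 groups had 3 libraries, and each library pooled RNA from 2 sexually mature adult males reared in laboratory colonies without flies. RNA came from bodies without head, legs, wings, pronotum and digestive tract, and larvae were dissected out first. Each Kauai pool held 1 flatwing and 1 normal-wing male and each Mangaia pool held 2 normal-wing males, so population and wing morph cannot be told apart. The larvae came from flies caught in California. Each population had a single control group for both days, and the labels give no collection day for it. The paper states that controls were still weighed at day 7. Age and time since handling may therefore differ between stages, and their part was not tested. Crickets whose larvae emerged before the day 7 collection were left out by the authors. P-values measure the spread between pools, and in such mixed tissue fewer cells of a type and less RNA per cell cannot be told apart.

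The libraries held 6266925 to 8023588 read pairs in genes. Both genes were well covered. MSTRG.9040 had 16595 read pairs in the 18 libraries together, and MSTRG.22070 had 6801. Levels are given in CPM, the read pairs of a gene relative to all pairs in genes, scaled by TMM factors. Mean CPM of MSTRG.9040 was higher than that of 95.5% of the genes tested, and that of MSTRG.22070 was higher than that of 89.3%. Of the day 7 libraries, Kauai library 1 and Mangaia library 2 were least like the others of their groups, with mean correlations of log2 CPM across genes of 0.940 and 0.902, and the day 7 results of both genes and the immune lists are also given without both. Unmapped pairs made up 10.4% to 10.6% of Kauai day 7 libraries and 8.14% to 9.99% of Kauai controls. Pairs aligning at multiple positions were rarer in Kauai day 7 libraries (6.57% to 8.28%) than in Kauai controls (10.9% to 12.0%). They were also rarer in Mangaia day 4 libraries (8.68% to 9.60%) than in Mangaia controls (10.1% to 12.3%). Kauai day 4 (10.2% to 14.4%) and Mangaia day 7 (8.52% to 11.2%) overlapped their controls. The part of both kinds of pairs in the results was not tested. Gene lengths were not used here, so changes in CPM are read between groups. The ranks among genes given above, and sums of CPM over genes given below, also depend on gene length. A gene was called changed at an adjusted p under 0.05 in edgeR's quasi-likelihood test, with Benjamini-Hochberg adjustment over all genes tested. Fold changes are on the log2 scale with their standard errors (SE).

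The 2 genes moved in opposite directions in infested crickets of both populations. At day 7, MSTRG.9040 was 3.33-fold lower than in controls in Kauai crickets and 5.46-fold lower in Mangaia crickets, while MSTRG.22070 was 2.74-fold higher in Kauai and 3.05-fold higher in Mangaia crickets. All 4 of these changes passed the test. Both genes were taken from a table that the paper cites for immune genes changed in these same libraries. These calls therefore cannot be read as independent of how the genes were chosen. At day 4 both genes already lay outside the range of the controls, but neither was called in a single population.

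MSTRG.9040, the gene named after an amidase of the SC type, was highest in controls. In Kauai libraries it was at 268, 172 and 203 CPM in controls, at 83.2, 69.7 and 49.4 CPM at day 4, and at 64.6, 37.1 and 91.2 CPM at day 7. Every infested Kauai library lay below every Kauai control, whereas the ranges at day 4 and day 7 overlapped. In Mangaia libraries it was at 230, 198 and 375 CPM in controls, at 187, 103 and 89.2 CPM at day 4, and at 78.6, 41.8 and 26.9 CPM at day 7. There the 3 stages did not overlap at all, although the highest day 4 library was close to the lowest control.

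At day 7, MSTRG.9040 averaged 64.3 ± 27.1 CPM in infested Kauai crickets and 214 ± 48.9 CPM in Kauai controls (SD, n = 3 each). This was a log2 fold change of −1.74 ± 0.425 (SE), with an adjusted p of 0.00375 in edgeR's quasi-likelihood test. Of all genes tested, 26.2% were called lower in this comparison, and the change of MSTRG.9040 was larger than that of 24.4% of them. In Mangaia crickets it averaged 49.1 ± 26.6 CPM at day 7 and 268 ± 94.4 CPM in controls (SD, n = 3 each). The log2 fold change was −2.45 ± 0.435 (SE), with an adjusted p of 0.00162 by edgeR, where 18.8% of the genes were called lower. It was larger than the change of 52.4% of those genes. Without both day 7 libraries named above the log2 fold changes were −1.78 in Kauai and −2.50 in Mangaia, and both were called. The fall of MSTRG.9040 at day 7 was thus a call that many genes shared, and its size was near the middle of the genes called lower in Mangaia and below it in Kauai.

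At day 4, MSTRG.9040 averaged 67.4 ± 17 CPM in infested Kauai crickets and 214 ± 48.9 CPM in their controls (SD, n = 3 each). The log2 fold change of −1.67 ± 0.424 (SE) had an adjusted p of 0.0537 by edgeR, just outside the threshold, in a comparison where 0.337% of genes were called lower. It was called in 7 of 10 fits with other settings and in 3 of 18 fits that left out 1 library, where adjusted p by edgeR reached 0.194. In Mangaia crickets the gene averaged 126 ± 52.7 CPM at day 4 and 268 ± 94.4 CPM in controls (SD, n = 3 each). The log2 fold change was −1.08 ± 0.417 (SE), with an adjusted p of 0.201 by edgeR, where 1.21% of genes were called lower.

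When the responses of both populations were averaged, a comparison added after the values had been seen, MSTRG.9040 was called lower at day 4. Its log2 fold change was −1.38 ± 0.297 (SE), or 2.6-fold lower, with an adjusted p of 0.0110 by edgeR. In that comparison 2.08% of genes were called lower, and only 1.87% of the genes tested had a more negative fold change. At day 7 the averaged log2 fold change was −2.09 ± 0.304 (SE), with an adjusted p of 7.03e-05 by edgeR, where 28.5% of genes were called lower. So the gene stood nearer to the extreme of all genes at day 4, when few others were called, than at day 7.

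MSTRG.22070 went the other way, and its libraries were more alike. In Kauai libraries it was at 27.7, 23.6 and 31.8 CPM in controls, at 43.4, 52.5 and 43.5 CPM at day 4, and at 77.0, 71.3 and 79.2 CPM at day 7. In Mangaia libraries it was at 31.3, 30.2 and 23.0 CPM in controls, at 36.2, 48.3 and 50.0 CPM at day 4, and at 60.5, 104 and 93.8 CPM at day 7. In both populations each stage lay above the one before it without overlap.

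**Figure D1:**
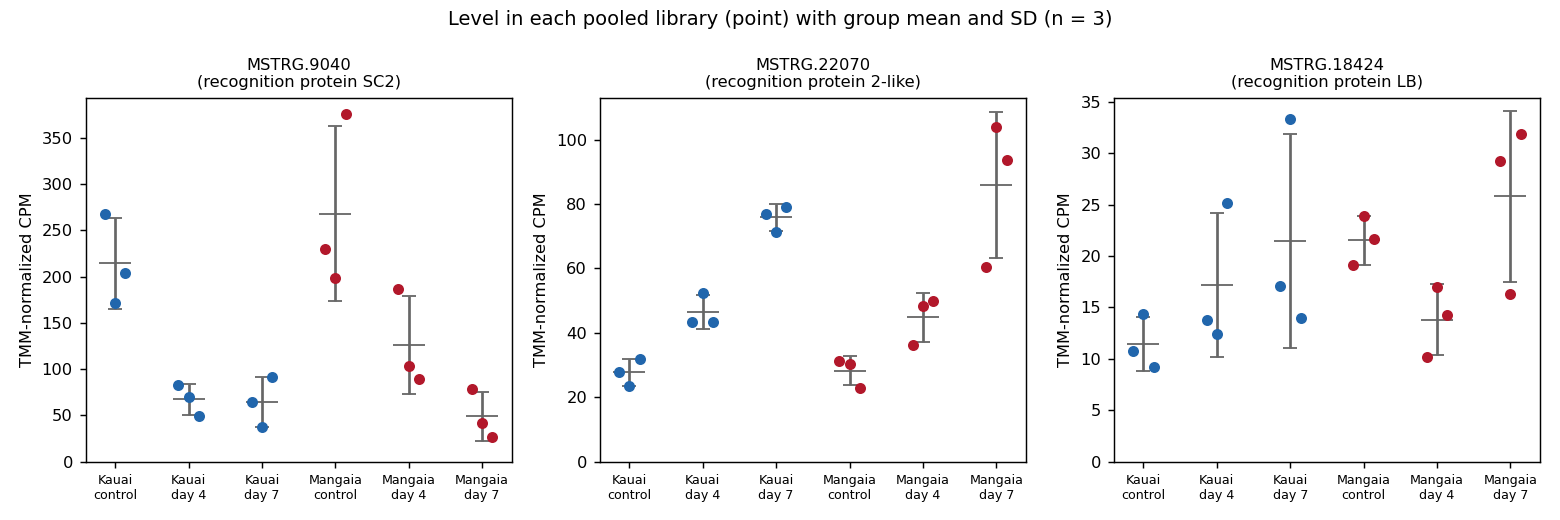
TMM-normalized CPM of MSTRG.9040, MSTRG.22070 and the third such gene of the immune table, MSTRG.18424, in each library (points), with the group mean and SD (grey bars, n = 3), for Kauai (blue) and Mangaia (red) at each stage. All infested libraries lie below the controls of their population for MSTRG.9040 and above them for MSTRG.22070, while the groups of MSTRG.18424 mostly overlap.

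At day 7, MSTRG.22070 averaged 75.9 ± 4.07 CPM in infested Kauai crickets and 27.7 ± 4.13 CPM in Kauai controls (SD, n = 3 each). This was a log2 fold change of 1.45 ± 0.215 (SE), with an adjusted p of 0.000218 in edgeR's quasi-likelihood test, and 25.1% of genes were called higher. In Mangaia crickets it averaged 86.0 ± 22.6 CPM at day 7 and 28.2 ± 4.50 CPM in controls (SD, n = 3 each). The log2 fold change was 1.61 ± 0.215 (SE), with an adjusted p of 0.000273 by edgeR, where 12.6% of genes were called higher. The change was larger than that of 48.3% of the genes called higher in Kauai and of 67.0% of those called higher in Mangaia. Without both day 7 libraries named above the log2 fold changes were 1.38 in Kauai and 1.31 in Mangaia, and both were called. With both populations averaged, the log2 fold change at day 7 was 1.53 ± 0.152 (SE), with an adjusted p of 4.15e-06 by edgeR, where 26.8% of genes were called higher.

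At day 4, MSTRG.22070 averaged 46.5 ± 5.20 CPM in infested Kauai crickets and 27.7 ± 4.13 CPM in their controls (SD, n = 3 each). The log2 fold change was 0.75 ± 0.212 (SE), with an adjusted p of 0.0815 by edgeR, where 1.73% of genes were called higher. In Mangaia crickets it averaged 44.8 ± 7.55 CPM at day 4 and 28.2 ± 4.50 CPM in controls (SD, n = 3 each). There the log2 fold change was 0.67 ± 0.212 (SE), with an adjusted p of 0.109 by edgeR, where 1.89% of genes were called higher. Averaged over both populations it was 0.71 ± 0.150 (SE), or 1.63-fold higher, and called, with an adjusted p of 0.00992 by edgeR, where 4.8% of genes were called higher.

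The day 7 calls of both genes, and the day 4 calls averaged over the populations, held in all 28 other fits, of which 18 each left out a single library.

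Day 7 was also compared with day 4, to see whether the levels moved on between the collection times. MSTRG.22070 was 1.63-fold higher at day 7 than at day 4 in Kauai crickets (log2 fold change 0.71 ± 0.210 SE, adjusted p = 0.0266 by edgeR), where 9.18% of genes were called higher. It was 1.92-fold higher in Mangaia crickets (0.94 ± 0.211 SE, adjusted p = 0.00738 by edgeR), where 9.79% were called higher. The Kauai call was lost without any 1 of 8 libraries, with log2 fold changes of 0.55 to 0.81 over all 18 such fits. The Mangaia call was lost without Mangaia day 4 library 1, at 0.70. Both calls were lost without Kauai day 7 library 1 and Mangaia day 7 library 2 together, at 0.61 in Kauai and 0.66 in Mangaia.

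MSTRG.9040 was 2.58-fold lower at day 7 than at day 4 in Mangaia crickets (log2 fold change −1.37 ± 0.421 SE, adjusted p = 0.0282 by edgeR), where 16.8% of genes were called lower. This call was lost without Mangaia day 4 library 1, at −1.08, without Mangaia day 7 library 2, at −1.27, and without Mangaia day 7 library 3, at −1.06. It was also lost without Mangaia day 7 library 2 and Kauai day 7 library 1 together, at −1.40. In Kauai crickets the change was −0.07, with a 95% interval of −0.95 to 0.81 and an adjusted p of 0.916 by edgeR, where 15.5% of genes were called lower. The difference between the populations in this step, added after the values had been seen, was 1.3 ± 0.588 (SE) on the log2 scale, with an adjusted p of 0.312 by edgeR, where 1.27% of genes were called. A difference between the populations in the step was therefore not shown.

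The changes of the genes in infested crickets were not shown to differ between the populations. For MSTRG.9040, the response of Kauai crickets minus that of Mangaia crickets was −0.59 at day 4 (95% interval −1.83 to 0.66, adjusted p = 0.755 by edgeR) and 0.71 at day 7 (−0.53 to 1.96, adjusted p = 0.504). For MSTRG.22070 it was 0.08 at day 4 (95% interval −0.56 to 0.71, adjusted p = 0.945 by edgeR) and −0.16 at day 7 (−0.79 to 0.48, adjusted p = 0.791). The interval of MSTRG.9040 reaches beyond a 2-fold difference on each day, and those of MSTRG.22070 are narrower. Without both day 7 libraries named above, the differences at day 7 were 0.71 for MSTRG.9040 and 0.0702 for MSTRG.22070, neither called. In all genes, 2.43% were called for such a difference at day 7 and 0% at day 4. The day 7 count of 576 genes was 0 without both day 7 libraries, 1711 with the likelihood ratio test and 2131 with DESeq2. At day 4, edgeR's quasi-likelihood test called 0 genes, with 2320 at an unadjusted p under 0.05, while its likelihood ratio test called 113, DESeq2 91 and limma voom 0.

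**Figure D2:**
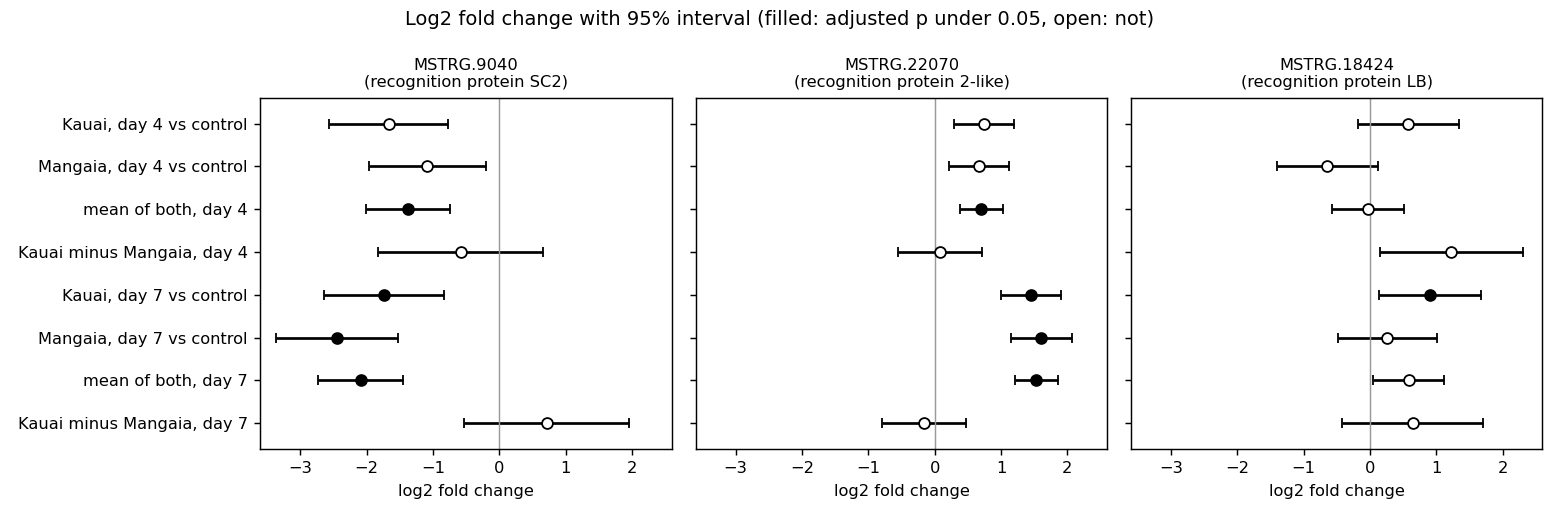
Log2 fold changes with 95% intervals for MSTRG.9040, MSTRG.22070 and MSTRG.18424: infested against control in Kauai and in Mangaia, the mean of both, and the response in Kauai minus that in Mangaia. Filled points have an adjusted p under 0.05, and those of MSTRG.9040 lie below 0 and those of MSTRG.22070 above 0.

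The levels themselves were also compared between Kauai and Mangaia crickets at each stage. In controls, Kauai minus Mangaia was −0.32 on the log2 scale for MSTRG.9040 (95% interval −1.20 to 0.55) and −0.03 for MSTRG.22070 (−0.48 to 0.43), where 0.0421% of genes were called in either direction. At day 4, all 3 Kauai libraries of MSTRG.9040, at 49.4 to 83.2 CPM, lay below all 3 Mangaia libraries, at 89.2 to 187 CPM. That difference of −0.91 had a 95% interval of −1.79 to −0.02 and an adjusted p of 0.491 by edgeR, and 0.152% of genes were called. MSTRG.22070 differed by 0.05 at day 4 (−0.39 to 0.50). At day 7 the differences were 0.39 for MSTRG.9040 (−0.49 to 1.27) and −0.18 for MSTRG.22070 (−0.63 to 0.26), where 3.53% of genes were called. The differences were 0.36 and 0.0159 without both day 7 libraries, and 5 in place of 839 genes were called. Neither gene was called between the populations at any stage.

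In order of mean level, MSTRG.9040 ran from Mangaia day 7 (49.1 CPM), Kauai day 7 (64.3) and Kauai day 4 (67.4) through Mangaia day 4 (126) to Kauai control (214) and Mangaia control (268). The lowest 3 groups overlapped one another, as did both control groups, and Mangaia day 4, at 89.2 to 187 CPM, overlapped Kauai day 7 below it and Kauai control above it. MSTRG.22070 ran from Kauai control (27.7 CPM) and Mangaia control (28.2) through Mangaia day 4 (44.8) and Kauai day 4 (46.5) to Kauai day 7 (75.9) and Mangaia day 7 (86.0). The populations overlapped at each stage and the stages did not.

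The pools of a group varied more in MSTRG.9040 than in MSTRG.22070. The coefficient of variation of CPM within a group was 22.8% to 54.2% for MSTRG.9040, and counting error alone would give 2.30% to 5.22%. For MSTRG.22070 it was 5.36% to 26.3%, with 3.91% to 7.56% from counting. The biological coefficient of variation that edgeR estimated over all groups was 36.8% for MSTRG.9040 and 20.3% for MSTRG.22070, so most of the spread of MSTRG.9040 lay between pools of crickets. In 4 of the 6 groups the library with the most MSTRG.9040 was also the one with the least MSTRG.22070. With 3 libraries per group such matches also arise by chance, and the count was not tested.

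The shift between the genes can be seen inside single libraries, where no scaling between libraries enters. In Kauai libraries there were 9.65, 7.28 and 6.39 read pairs of MSTRG.9040 per read pair of MSTRG.22070 in controls, 1.92, 1.33 and 1.14 at day 4, and 0.838, 0.520 and 1.15 at day 7. In Mangaia libraries the ratio was 7.35, 6.55 and 16.3 in controls, 5.16, 2.13 and 1.78 at day 4, and 1.3, 0.402 and 0.287 at day 7. The infested libraries of each population all lay below its controls. The ratio also depends on the lengths of the genes, so only its differences between libraries can be read, and as it was formed from genes known to move apart it was not tested.

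**Figure D3:**
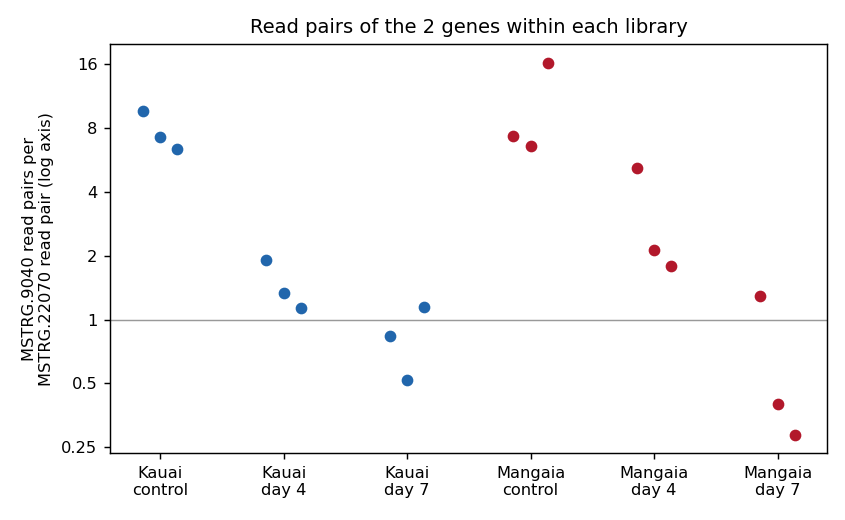
Read pairs of MSTRG.9040 per read pair of MSTRG.22070 in each library (points, log axis), by population and stage. The controls lie at 6.39 to 16.3 and the day 7 libraries at 0.287 to 1.3.

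The third recognition protein of the immune table, MSTRG.18424, is named LB, after a Drosophila amidase that damps Imd signalling. In Kauai libraries it was at 10.8, 14.3 and 9.25 CPM in controls, at 13.8, 12.5 and 25.2 CPM at day 4, and at 17.1, 33.3 and 14 CPM at day 7. In Mangaia libraries it was at 19.1, 23.8 and 21.7 CPM in controls, at 10.1, 17 and 14.3 CPM at day 4, and at 29.2, 16.3 and 31.8 CPM at day 7. It showed neither of the patterns above: day 7 overlapped control in both populations, and day 4 lay below control only in Mangaia. MSTRG.18424 was called higher at day 7 in Kauai crickets, by 0.90 ± 0.361 (SE) on the log2 scale with an adjusted p of 0.0469 by edgeR, a call that was lost without Kauai day 7 library 2, at 0.40, and in 15 other fits. Its log2 fold change at day 7 was 0.26 in Mangaia (adjusted p = 0.596 by edgeR), and at day 4 it was 0.58 in Kauai (adjusted p = 0.391) and −0.64 in Mangaia (adjusted p = 0.429).

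MSTRG.9040 fell where most genes of the immune table that were called rose. Of the other 51 genes of that table, 35 were called higher and 8 lower at day 7 in Kauai, with a median log2 fold change of 1.14. Over all genes tested the median was 0.07, and 25.1% were called higher and 26.2% lower. In Mangaia 20 were called higher and 5 lower, with a median of 0.62, beside a median of −0.01 and shares of 12.6% higher and 18.8% lower over all genes. Without both day 7 libraries named above, 30 were called higher and 8 lower in Kauai, and 13 higher and 3 lower in Mangaia. The 53 genes are a subset of those that the study annotated as immune, and the paper does not state how the subset was chosen. It cites the table, however, for immune genes that changed significantly in these same libraries. Genes that changed may thus have been favoured, so the counts cannot be read as independent evidence of a response or its direction. All comparisons with controls within a population share those controls.

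Toll receptors signal infection in insects. The table held 9 genes of this kind or related to it, of which 7 are named Toll-like receptors and the others TLR4 interactor with leucine rich repeats and CD180 antigen. At day 7, 9 of the 9 were called higher in Kauai, beside 25.1% of all genes, and 5 in Mangaia, beside 12.6%, and none was called lower. These counts were 8 and 4 without both day 7 libraries. The genes of this and the other lists come from the same immune table, which the paper cites for genes changed in these libraries. Their counts therefore cannot be read as independent evidence beside the shares of all genes. The highest mean fitted change was that of MSTRG.7687, named Toll-like receptor Tollo, a gene of few reads. It had 77 read pairs in the day 7 libraries together and 1 in the controls in Kauai, and 36 and 4 in Mangaia, so the size of its change was poorly determined. MSTRG.22165, MSTRG.872, TOG006794, MSTRG.22446 and TOG013608 of this list also averaged under 1 CPM in the controls of both populations. In Mangaia, MSTRG.22165 averaged 0.137 CPM at day 7 and 0.219 CPM in controls. The lowest mean change was that of MSTRG.9480, named Toll-like receptor 13, with 1.82 in Kauai (called) and −0.50 in Mangaia (not called). Among 5 proteins of immune signalling, 4 were called higher and 1 lower in Kauai, and 1 higher and 1 lower in Mangaia, also without both day 7 libraries. The gene called lower was in both cases MSTRG.6375, named interleukin-1 receptor-associated kinase 1-binding protein 1, at −3.63 in Kauai and −2.95 in Mangaia.

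Phenoloxidases make melanin, and in insects their inactive forms are made largely by haemocytes, the blood cells. The 7 genes of this kind were planned as markers of those cells. They come from the same immune table, however, and a change in their RNA per cell cannot be told from a change in the number of cells. At day 7, 6 were called higher and 1 lower in Kauai, beside 25.1% and 26.2% of all genes, and 4 were called higher in Mangaia, beside 12.6%. Without both day 7 libraries, 4 were called higher and 1 lower in Kauai and 3 higher in Mangaia. In Kauai their summed level was 140 to 152 CPM in controls, 460 to 589 CPM at day 4 and 860 to 1860 CPM at day 7. In Mangaia it was 151 to 220 CPM in controls, 532 to 1320 CPM at day 4 and 1148 to 1944 CPM at day 7. These ranges did not overlap between infested and control libraries, as was the case for MSTRG.22070 and MSTRG.9040, and their part in either change was not tested. In the infested groups most of the sum was MSTRG.7273, named phenoloxidase 2-like, with log2 fold changes at day 7 of 4.07 in Kauai and 4.18 in Mangaia. The gene called lower was MSTRG.11188, also named phenoloxidase 2-like, which had 0 to 9 read pairs in a library. It was the only one of the 7 with libraries at 0, of which there were 3. Both phenoloxidase-activating factors, which are proteases acting on prophenoloxidase, are in the table. At day 7 MSTRG.6730 rose in Kauai (1.09) and in Mangaia (1.04), and MSTRG.18615 rose in Mangaia (0.73) and was not called in Kauai (0.41). Without both day 7 libraries, only 1 of these 2 genes was called higher in Mangaia, and 1 in Kauai.

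**Figure D4:**
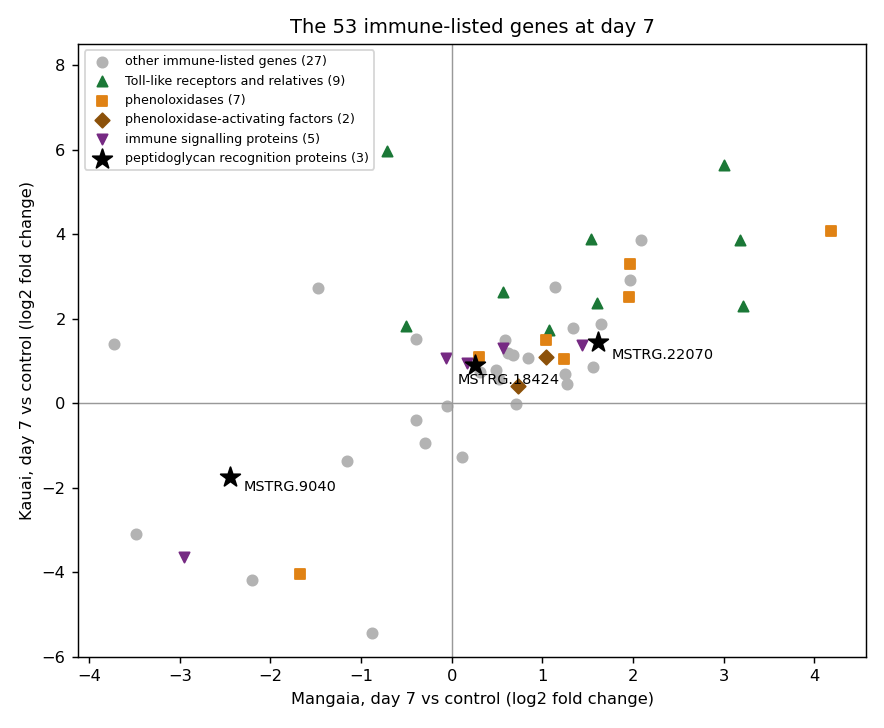
Log2 fold changes at day 7 against control for the 53 genes of the immune table, with Kauai on the vertical and Mangaia on the horizontal axis. Each point is a gene, stars mark the 3 peptidoglycan recognition proteins, and MSTRG.9040 sits at −2.45 in Mangaia and −1.74 in Kauai, where most genes of the table are above 0.

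Genes with the most similar profiles were sought over the 18 libraries, as the mean absolute difference in log2 CPM after each gene was centred on its own mean, among 8523 genes whose mean level was 10 CPM or more. For MSTRG.22070 the nearest was MSTRG.17457, named protein eiger, after the tumour necrosis factor ligand of Drosophila, with a mean difference of 0.139, beside a median of 0.614 over the candidates. MSTRG.17457 averaged 6.85 ± 1.03, 11.2 ± 1.86 and 17.7 ± 2.5 CPM in Kauai controls, day 4 and day 7, and 6.86 ± 1.45, 9.87 ± 0.509 and 18.7 ± 4.94 CPM in Mangaia (SD, n = 3 each). At day 7 its log2 fold change against control was 1.37 in Kauai and 1.44 in Mangaia, beside 1.45 and 1.61 for MSTRG.22070. That closeness follows from how MSTRG.17457 was chosen. By Pearson correlation over the same libraries, which share treatments, the nearest were other genes, MSTRG.1039 (r = 0.98), MSTRG.8136 (0.98) and MSTRG.12648 (0.97), all without a name, and MSTRG.17457 had r = 0.96. By mean difference the next were MSTRG.18161 (0.153) and MSTRG.15269 (0.156), which have no name in the sources used here. Within the immune table, searched without the floor on mean level, the nearest after MSTRG.17457 were MSTRG.3504, named tubulointerstitial nephritis antigen-like (0.286), and TOG006749, named small ubiquitin-related modifier 3 (0.287).

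For MSTRG.9040 the nearest profiles were farther away by mean difference. They were MSTRG.1597 (0.319), MSTRG.23397 (0.331) and MSTRG.1886 (0.366), all without a name. The candidates in general were also farther away, with a median of 0.993, beside 0.614 for MSTRG.22070. By Pearson correlation the nearest were MSTRG.1597 (r = 0.94), MSTRG.23397 (0.92) and MSTRG.21619 (0.92). MSTRG.1597 averaged 22.5 ± 2.79, 10.8 ± 2.5 and 11.4 ± 2.10 CPM in Kauai controls, day 4 and day 7, and 34.8 ± 5.82, 20.6 ± 9.96 and 9.32 ± 2.49 CPM in Mangaia (SD, n = 3 each). Like MSTRG.9040, its mean at day 7 was close to that at day 4 in Kauai and lower than at day 4 in Mangaia. As MSTRG.1597 was chosen for its likeness over these same libraries, this follows from the choice. Within the immune table, again without a floor, the nearest were MSTRG.2317, named Lola protein isoform A (0.496), with a mean of 2.54 CPM, and MSTRG.11188 (0.738), the gene with 0 to 9 read pairs in a library, beside a median of 1.25 for the table. MSTRG.2317, whose Drosophila namesake is a transcription factor of nerve growth, was called lower at day 7 in Kauai at −1.38 and in Mangaia at −1.15. These are likenesses over libraries that share treatment and depth, and nothing about common control was tested.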

How the data were processed

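RNA of 18 pools of crickets was sequenced as unstranded, poly(A)-enriched libraries. The authors trimmed reads with Trimmomatic 0.33, aligned pairs in repeated passes to the cricket genome with STAR 2.5.3a, using junctions merged with StringTie 1.3.4d, and deposited raw counts of read pairs per gene for 32729 genes. Counts of the separate strands were used only to check that they did not differ. Pairs that were unmapped (7.51% to 11.6%), mapped to several places (6.57% to 14.4%), in no gene (5.63% to 6.64%) or ambiguous (2.92% to 4.99%) name no gene and were left out. Pairs shared by near-identical genes of this family would be among those left out.

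Statistics were run in R 4.3.3 on the 23748 genes that reached 1 CPM in 2 or more libraries. TMM factors were 0.846 to 1.151. All 18 libraries entered a single quasi-likelihood fit in edgeR 4.0.16 with 1 mean for each of the 6 groups, and p-values were adjusted by the Benjamini-Hochberg method over all genes tested. Standard errors were derived from the test statistic, and 2 was the prior count for log2 CPM. The script was run on simulated data in which few genes were changed, all upward and only in Kauai day 7. Many changes in both directions, as in the real data, were not simulated. Alternatives used a likelihood ratio test in edgeR, limma 3.58.1 (voom), DESeq2 1.42.0, other size factors, other filters, only the libraries compared and each library left out in turn.

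Whether libraries with the same number deviated together was looked at. Over 45 same-numbered pairs the correlation of deviations from group means was −0.51 to 0.26, and 10 were over 0.1. Pairs with different numbers were not set beside them, so whether the numbers mark a shared batch was not settled. A fit with the number as a block (the replicate block) was run as an alternative only. Genes, lists and comparisons were chosen with earlier results of these data known. Named genes were both recognition proteins, the third of the immune table, the genes with the largest and smallest mean change at day 7 in each immune list other than the 27 mixed genes, and the 3 genes most like each recognition protein, in all genes and in the immune table. Of these, 1 gene is not reported here. The responses averaged over the populations, the difference between populations in the step between day 4 and day 7, the ratio of the genes, the fit without both day 7 libraries least like their groups and the alternatives for MSTRG.9480 were added after the data were seen. No genome, gene length or sequence was used here.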

Additional observations from a re-analysis of the deposited data

Results flagged for a closer look

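MSTRG.9480, named Toll-like receptor 13, was called for a difference in response between the populations at day 7, by a test of the difference itself, though not in all fits. Its log2 fold change against control in Kauai minus that in Mangaia was 2.32 ± 0.459 (SE), with an adjusted p of 0.0378 in edgeR's quasi-likelihood test. The call was lost with the replicate block (2.32, adjusted p = 0.0800 by edgeR), without both day 7 libraries least like their groups (2.45, adjusted p = 0.0775) and in 9 of 18 fits that left out 1 library (2.19 to 2.52, adjusted p up to 0.0911), and kept in 8 other fits. It averaged 4.91 ± 0.832 CPM at day 7 and 1.38 ± 0.273 CPM in controls in Kauai, and 1.24 ± 0.134 CPM at day 7 and 1.76 ± 0.204 CPM in controls in Mangaia (SD, n = 3 each). In CPM at day 4, every Kauai library of MSTRG.9480 was above its controls and every Mangaia library below. This rested on few reads. Kauai libraries had 21 to 31 read pairs at day 4 and 7 to 10 in controls. Mangaia libraries had 5 to 11 and 10 to 14, which overlapped before scaling. The difference in response at day 4 was 2.26 with an adjusted p of 0.278 by edgeR, which did not pass the threshold. It passed in 1 of 10 fits with other settings.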

How the results depend on the processing

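For both genes, the day 7 response in each population and the day 4 response averaged over the populations kept direction and call in all 28 alternatives. The day 4 response of MSTRG.9040 in Kauai became called with the likelihood ratio test (−1.67), DESeq2 (−1.75), RLE size factors (−1.75), library size alone (−1.42), filterByExpr (−1.67), only the libraries compared (−1.66) and without both day 7 libraries least like their groups (−1.64), with −1.83 to −1.45 over fits that left out 1 library. That of MSTRG.22070 became called with library size alone (0.98) and without both day 7 libraries (0.77). Of the steps from day 4 to day 7, that of MSTRG.9040 in Mangaia lost its call without both day 7 libraries (−1.40) and with only the libraries compared (−1.46), with −1.84 to −1.06 when 1 library was left out. That of MSTRG.22070 in Mangaia lost it in the same fits (0.66 and 0.86; range 0.70 to 1.17), and that in Kauai with RLE (0.62), without both day 7 libraries (0.61) and with only the libraries compared (0.67; range 0.55 to 0.81). The cause was not tested.

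Several uncalled differences near 0 changed sign and stayed uncalled. The step of MSTRG.9040 in Kauai was 0.0115 with library size alone, with −0.52 to 0.14 when 1 library was left out. Between populations, MSTRG.9040 ranged from −0.48 to 0.0248 in controls. MSTRG.22070 in controls was 0.0644 with DESeq2, 0.0649 with RLE and 0.0107 with filterByExpr (range −0.126 to 0.0807), at day 4 it ranged from −0.0694 to 0.157, and at day 7 it was 0.0159 without both day 7 libraries. Its difference in response at day 4 was −0.0444 with DESeq2 and −0.0452 with RLE (range −0.0728 to 0.21), and at day 7 it was 0.18 with library size alone and 0.0702 without both day 7 libraries. MSTRG.18424 had a step in Kauai of −0.20 to 0.58, negative without Kauai day 7 library 2, and a difference between populations at day 4 of −0.0318 to 0.47, negative without Kauai day 4 library 3.

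With the replicate block, MSTRG.9040 at day 7 was −1.73 in Kauai and −2.52 in Mangaia, MSTRG.22070 was 1.45 and 1.59, and no call of either gene changed. With library size alone, the median change over all genes tested was 0.24 at day 4 and 0.37 at day 7 in Kauai, beside 0.01 and 0.07 with TMM. Counts of genes called moved more than the members did. Against 491 genes called at day 4 in Kauai, the likelihood ratio test called 1466, DESeq2 1496, limma voom 280, library size alone 2235, the replicate block 279 and the fit without both day 7 libraries 1554. Against 738 at day 4 in Mangaia, the likelihood ratio test called 1318 and DESeq2 1452. With only the libraries compared, 3327 in place of 7454 genes were called at day 7 in Mangaia, 1384 in place of 6308 for its step and 2760 in place of 5864 for the step in Kauai. Counts between populations also moved. At day 7, 839 genes became 2268 (likelihood ratio test), 2610 (DESeq2), 134 (replicate block), 5 (without both day 7 libraries) and 0 (only the libraries compared). At day 4, 36 became 505, 504, 0, 10 and 0 in the same fits, with 0 also for RLE, library size alone and no filter and 20 for filterByExpr. In controls 10 became 513, 656, 3, 241 and 415, and 374 with library size alone. For the difference in response at day 7, 576 became 1711, 2131, 0 and 0 in the first 4 of these, 1947 with library size alone and 306 with no filter. For that in the step, 302 became 775, 1062 and, without both day 7 libraries, 126, with 0 for library size alone and for only the libraries compared. Averaged over the populations at day 4, 1635 became 2581, 2652 and, with library size alone, 2846.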
